A study of Rattus norvegicus with 32 samples.

Results

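The genes described here are 8 liver transporters chosen by symbol from the count table, all 8 of which were among its 17327 genes and passed the filter on low counts that left 11002 genes for testing. They were Abcb4, Abcb11, Abcc2, Abcc3, Abcg5, Abcg8, Slc10a1 and Slco1a1. Bulk RNA sequencing of rat liver was made from 32 Charles River Sprague Dawley rats under basal conditions, with 4 libraries in each of 8 groups. The knockout (KO) rats were Cbg-/-, with Serpina6 disrupted by CRISPR/Cas9, and the wild-type (WT) rats were Cbg+/+. The groups were KO and WT males at 60 days of age, KO and WT females at 60 days, KO and WT males at 30 days, and KO and WT females at 30 days. Serpina6 encodes corticosteroid-binding globulin, a protein that hepatocytes secrete and that carries corticosterone in blood. The disruption is carried in the germ line, so it is not restricted to the liver. The number of founders of the KO line was not stated in the labels.

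Hepatocytes take up bile acids and other organic anions from blood across their basolateral (sinusoidal) membrane and export them into bile across the canalicular membrane. Slc10a1 (NTCP) carries conjugated bile acids into the cell together with sodium, and Slco1a1 (OATP1A1) takes up organic anions without sodium. At the canaliculus Abcb11 (the bile salt export pump) exports bile salts, Abcb4 (MDR2 in rodents) moves phosphatidylcholine into the outer leaflet of the membrane so that bile salts can take it up, and Abcc2 (MRP2) exports conjugates such as bilirubin glucuronides and glutathione conjugates. Abcg5 and Abcg8 form a heterodimer that exports cholesterol and plant sterols into bile, and Abcc3 (MRP3) returns conjugates and bile salts across the basolateral membrane to blood.

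Counts on genes came to between 12951969 and 17133332 reads per library at 60 days and between 16806943 and 21954929 at 30 days. Levels are given as counts relative to the library's total on genes (CPM) after TMM scaling. They are not divided by transcript length and so are not compared between genes. Serpina6 was at 25.5 to 131 CPM in the 16 KO libraries and at 421 to 1358 CPM in the 16 WT libraries. All 10 hepatocyte markers examined, among them Alb, Ttr and Apoa1, were present in each group, with a summed level of 207293 to 299886 CPM. One library stood apart. Replicate 1 of the 60-day KO females held 2058 CPM of 12 photoreceptor transcripts, against 3.34 to 9.16 CPM in the other 3 libraries of that group, and results for 60-day KO females are also given without it where a call or a count changed. Bulk values cannot tell fewer cells of a type from less RNA per cell. A gene was called changed at a Benjamini-Hochberg adjusted p below 0.05 over all tested genes in edgeR's quasi-likelihood test, fitted to all 32 libraries. Errors of log2 fold changes are standard errors derived from the F statistic of that test.

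Between KO and WT livers, 3 of 8 transporters were called in 60-day females, against 6.77% of all tested genes: Abcb4 and Slc10a1 were lower in KO females and Slco1a1 was higher. Abcb4 alone was called with a score of clock genes as a covariate or in a fit to the 16 libraries at 60 days. Without the library with photoreceptor transcripts 3.6% of all genes were called, with Abcb4, Slco1a1 and Abcc3 among them. In 60-day males 0 of 8 were called (0.209% of all genes), in 30-day males 0 of 8 (0.0545%), and in 30-day females 0 of 8 (0.3%). Those 3 counts were also 0 by DESeq2 and by limma. At an unadjusted edgeR p below 0.05 the numbers were 2 transporters in 60-day males (10.8% of all genes), 1 in 30-day males (5.94%) and 0 in 30-day females (10.7%). The median log2 fold change of the 8 transporters was -0.26 in 60-day females, 0.15 in 60-day males, 0.20 in 30-day males and 0.11 in 30-day females, where the median of all tested genes lay between 0.00 and 0.01.

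**Figure D1:**
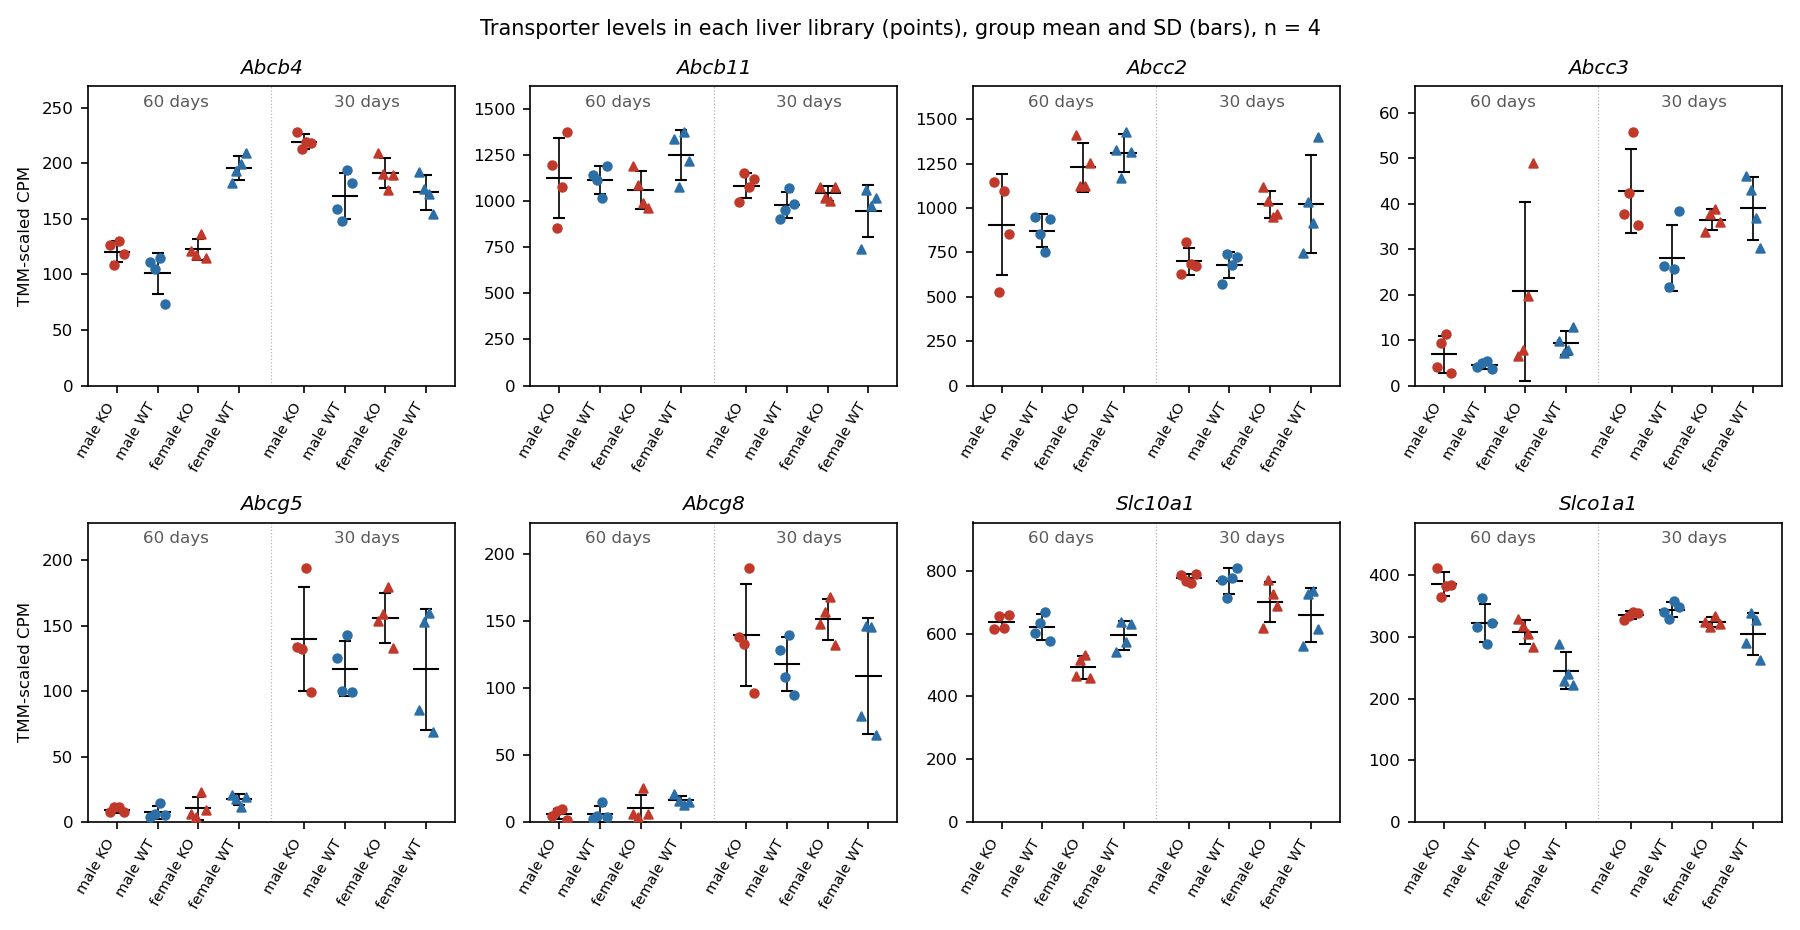
Level of each transporter (TMM-scaled CPM, linear axes from 0) in every library, with KO in red and WT in blue, males as circles and females as triangles. Bars are the mean and SD of 4 libraries. Abcb4 stands at 183 to 209 CPM in 60-day WT females and at 115 to 137 CPM in 60-day KO females, and Abcg5 and Abcg8 are lower at 60 than at 30 days in all 4 pairs of groups.

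Abcb4, the phosphatidylcholine flippase of the canaliculus, had the transporters' only called interaction of sex and genotype. In 60-day KO females it measured 121, 117, 137 and 115 CPM, against 183, 193, 199 and 209 CPM in 60-day WT females. All 4 KO libraries lay below all 4 WT libraries. Their log2 fold change was -0.68 ± 0.10 (adjusted p = 0.000122, edgeR), a level 37.4% lower in KO females. In 60-day males Abcb4 measured 126, 108, 130 and 118 CPM in KO livers, against 111, 105, 114 and 73.7 CPM in WT livers. These groups overlapped, and the log2 fold change of 0.25 ± 0.10 was not called (adjusted p = 0.345, edgeR). The genotype effect in males minus that in females at 60 days was 0.93 ± 0.14 on the log2 scale (adjusted p = 0.00234, edgeR). It was the 1 transporter called in that test, against 0.136% of all genes.

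The same 4 groups can be read by sex. In 60-day WT rats Abcb4 averaged 101 ± 18.6 CPM in males and 196 ± 11.1 CPM in females (SD, n = 4 each), a log2 fold change of -0.95 ± 0.10 (adjusted p = 2.29e-08, edgeR). In 60-day KO rats it averaged 120 ± 9.58 CPM in males and 122 ± 9.71 CPM in females (SD, n = 4 each). Their log2 fold change was -0.02 ± 0.10, with a 95% interval from -0.23 to 0.19 (adjusted p = 0.91, edgeR). Male and female KO libraries were interspersed, whereas every WT male lay below every WT female. Without the 60-day KO female library that held photoreceptor transcripts, Abcb4 was lower in KO than in WT females by a similar amount, at -0.67 ± 0.11 (adjusted p = 0.000745), and the sex-by-genotype difference was 0.92 ± 0.15 (adjusted p = 0.00764, both edgeR). In a fit to the 16 libraries at 60 days alone the interaction had the same size, 0.94 ± 0.16, but an adjusted p of 0.0721.

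Abcb4 at 30 days showed no such sex difference among WT rats, whose males had 159, 148, 194 and 182 CPM and whose females had 192, 177, 173 and 154 CPM. These ranges overlapped, and the log2 fold change was -0.03 ± 0.10 (adjusted p = 0.953, edgeR). In 30-day males the KO libraries, at 228, 213, 219 and 218 CPM, lay above the WT libraries without overlap. That log2 fold change of 0.36 ± 0.10 had an unadjusted p of 0.00119 and was not called (adjusted p = 0.291, edgeR). The 30-day KO females had 209, 190, 176 and 189 CPM, which overlapped the WT females (0.13 ± 0.10, adjusted p = 0.683, edgeR). By group mean the order of Abcb4 from high to low was 30-day KO males, 60-day WT females, 30-day KO females, 30-day WT females, 30-day WT males, 60-day KO females, 60-day KO males and 60-day WT males. Neighbours in that order overlapped, with 2 exceptions. The lowest 30-day KO male, at 213 CPM, was above the highest 60-day WT female, at 209 CPM. The lowest 30-day WT male, at 148 CPM, was above the highest 60-day KO female, at 137 CPM.

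With age Abcb4 was lower at 60 than at 30 days in male KO, male WT and female KO livers, by -0.86 ± 0.10, -0.76 ± 0.10 and -0.64 ± 0.10 on the log2 scale (adjusted p = 1.85e-07, 1.19e-06 and 2.08e-05, edgeR). In female WT livers the log2 fold change was 0.17 ± 0.10 (adjusted p = 0.203, edgeR). The age effect in KO minus that in WT females was -0.81 ± 0.14 (adjusted p = 0.00199, edgeR), the 1 transporter called there against 2.96% of all genes. The age effect in males minus that in females was -0.93 ± 0.14 in WT rats (adjusted p = 7.68e-05, edgeR), again the 1 transporter called, against 9% of all genes. In KO rats it was -0.22 ± 0.14 (adjusted p = 0.463, edgeR), and 0 of 8 transporters were called, against 4.69% of all genes. The tests of age by genotype in males (0.00909% of all genes) and of sex by genotype at 30 days (0%) also called 0 of 8 transporters. At an unadjusted edgeR p below 0.05 those 3 tests held 2, 1 and 0 transporters and 17.4%, 5.34% and 5.51% of all genes, in the order given, and DESeq2 and limma also called 0 in each. Without the 60-day KO female library that held photoreceptor transcripts, the age-by-genotype difference of Abcb4 in females was -0.81 ± 0.15 (adjusted p = 0.00568, edgeR), and Abcc3 was called in the test of sex by age in KO rats (-2.10 ± 0.54, adjusted p = 0.0292, edgeR). Abcc3 was also called there without replicate 2 of the 60-day KO females (adjusted p = 0.0284) or replicate 3 of the 60-day KO males (adjusted p = 0.0457, edgeR).

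**Figure D2:**
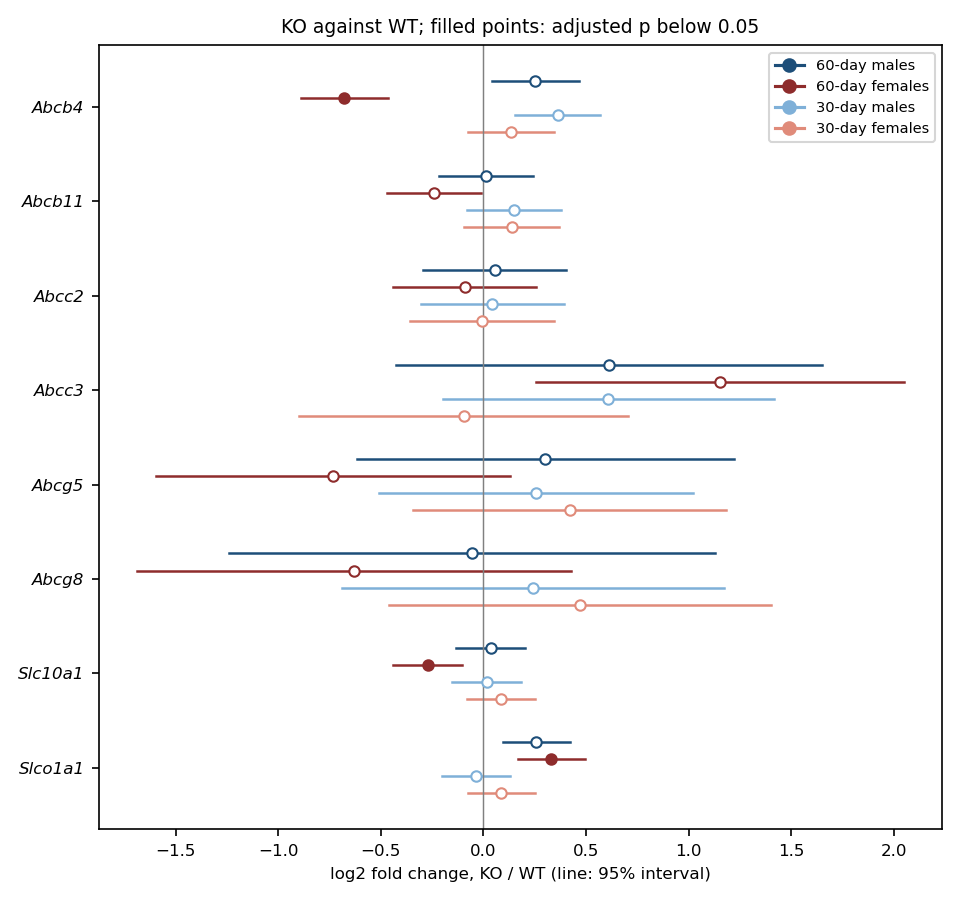
Log2 fold change of KO over WT for each transporter in 60-day males, 60-day females, 30-day males and 30-day females, with 95% intervals (edgeR, n = 4 a group). Filled points, at an adjusted p below 0.05, occur only in 60-day females, for Abcb4, Slc10a1 and Slco1a1.

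Of the uptake carriers, Slc10a1 was lower and Slco1a1 higher in 60-day KO than in 60-day WT females. Slc10a1 measured 465, 516, 532 and 458 CPM in KO females, against 541, 637, 572 and 630 CPM in WT females. The KO libraries all lay below the WT libraries. The log2 fold change was -0.27 ± 0.08 (adjusted p = 0.0395, edgeR). This call was close to the threshold. Without the library with photoreceptor transcripts it was -0.25 ± 0.09 with an adjusted p of 0.122, and with a score of clock genes as a covariate it was -0.18 ± 0.10 with an adjusted p of 0.378 (both edgeR). The call was also lost without replicate 2, 3 or 4 of the WT females (adjusted p = 0.127, 0.0513 and 0.117) or replicate 4 of the KO females (adjusted p = 0.107), and in a fit to the 16 libraries at 60 days (adjusted p = 0.0818, edgeR).

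In 60-day males Slc10a1 measured 615, 655, 619 and 659 CPM in KO livers and 603, 634, 670 and 577 CPM in WT livers, with overlap. The log2 fold change was 0.04 ± 0.08 (adjusted p = 0.92, edgeR). The male minus female genotype effect at 60 days, 0.31 ± 0.11, was not called (adjusted p = 0.322, edgeR). Slc10a1 was higher in males than in females among 60-day KO rats (0.37 ± 0.08, adjusted p = 0.00124, edgeR), with no overlap. Among 60-day WT rats the same comparison gave 0.06 ± 0.08 (adjusted p = 0.629, edgeR).

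Slco1a1 measured 328, 317, 305 and 283 CPM in 60-day KO females, against 289, 229, 241 and 222 CPM in 60-day WT females. One WT library reached into the KO range. On the log2 scale the fold change was 0.33 ± 0.08 (adjusted p = 0.0111, edgeR). It was 0.30 ± 0.09 without the library with photoreceptor transcripts (adjusted p = 0.0467) and 0.25 ± 0.09 with the clock score as a covariate (adjusted p = 0.173, both edgeR). The call was also lost without replicate 4 of the WT females (adjusted p = 0.0547) and in a fit to the 16 libraries at 60 days (adjusted p = 0.0767, edgeR). In 60-day males Slco1a1 measured 411, 364, 382 and 384 CPM in KO livers, against 316, 363, 288 and 322 CPM in WT livers. The KO males lay just above the WT males, yet the log2 fold change of 0.26 ± 0.08 was not called (adjusted p = 0.196, edgeR). The genotype effect in males minus that in females was -0.07 ± 0.11, with a 95% interval from -0.31 to 0.16 (adjusted p = 0.884, edgeR).

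Males had more Slco1a1 than females at 60 days in both genotypes, by 0.32 ± 0.08 in KO rats (adjusted p = 0.00403) and by 0.39 ± 0.08 in WT rats (adjusted p = 0.00036, both edgeR). At 30 days it measured 327 to 341 CPM in KO males and 316 to 334 CPM in KO females, and 330 to 358 CPM in WT males and 263 to 338 CPM in WT females. Neither 30-day sex comparison was called. Slco1a1 belongs to a family of closely related Slco1a genes, so its counts may share reads with them and depend on the counting.

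Clock genes and zonation markers moved in the comparison of 60-day KO with 60-day WT females, where 6.77% of all tested genes were called. Without the library with photoreceptor transcripts that share was 3.6%. Of 12 clock genes tested, 4 were higher in 60-day KO than in 60-day WT females and 1 was lower. Per3 was higher by 1.80 ± 0.31 (adjusted p = 0.000696), Per2 by 1.60 ± 0.28 (adjusted p = 0.000987), Tef by 0.94 ± 0.18 (adjusted p = 0.00188) and Dbp by 2.27 ± 0.45 (adjusted p = 0.0026, edgeR). The score of clock genes, in log2 units, was -0.17 ± 0.78 in KO females and -1.23 ± 0.57 in WT females at 60 days (SD, n = 4 each). The library with photoreceptor transcripts had the highest score of its group, 0.76, and the other 3 KO females averaged -0.48 ± 0.57 (SD, n = 3). Without it Per2, Per3, Tef and Dbp were called at 1.64, 1.34, 0.71 and 1.45 (adjusted p = 0.00243, 0.00438, 0.0116 and 0.0187, edgeR), and Npas2, the gene that was lower, was not (adjusted p = 0.0779). Abcb4 was called in that comparison with this score as a covariate, whereas Slc10a1 and Slco1a1 were not. The score also averaged higher in KO than in WT livers in the other pairs of groups. It was -1.17 ± 0.36 against -1.44 ± 0.37 in 60-day males and -0.35 ± 0.24 against -0.85 ± 0.11 in 30-day males. In 30-day females it was -0.56 ± 0.40 against -1.33 ± 0.33 (SD, n = 4 each). KO and WT scores overlapped in females at both ages and in 60-day males, but not in 30-day males. Of 9 pericentral hepatocyte markers, 4 were lower in 60-day KO females (Slc1a2, Cyp1a2, Gulo and Glul) and 0 were higher. Their summed level was 3872 to 6334 CPM in KO females and 5436 to 7801 CPM in WT females. The lowest of these sums, 3872 CPM, was that of the library with photoreceptor transcripts, without which the same 4 markers were called. Of 9 periportal markers 1 was higher (Sdsl) and 2 were lower (Pck1 and Ass1). The periportal markers summed to 4385 to 5016 CPM in 60-day KO females and 5024 to 7326 CPM in 60-day WT females. These sums lay just apart, whereas the pericentral sums overlapped, so the summed level of both zones was lower on average in KO females. The part of zonation in the transporter results was not tested. Of the 10 hepatocyte markers Fgb was lower, and of 8 cholangiocyte markers Epcam was higher. Of 4 enterocyte markers Apoa4, an apolipoprotein that liver also makes, was lower in KO females (149 ± 73.3 against 452 ± 121 CPM in WT females, SD, n = 4 each; -1.60 ± 0.30, adjusted p = 0.00216) and in 60-day KO males (-1.46 ± 0.30, adjusted p = 0.032, both edgeR). Sdsl and Fgb were not called without the library with photoreceptor transcripts (adjusted p = 0.0715 and 0.119), while Pck1, Ass1, Epcam and Apoa4 were (edgeR). None of the Kupffer cell (8 tested), endothelial (5), stellate (6), lymphocyte (4) or erythroid (3) markers was called in 60-day females.

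The other canalicular exporters, Abcb11 and Abcc2, were not called between genotypes in any sex or age. Abcb11 had 1191, 1089, 993 and 964 CPM in 60-day KO females, against 1339, 1076, 1378 and 1218 CPM in 60-day WT females. Their ranges overlapped. The log2 fold change was -0.24 ± 0.11, with a 95% interval from -0.47 to -0.01 (adjusted p = 0.206, edgeR). Its log2 fold change between KO and WT was 0.01 ± 0.11 in 60-day males, 0.15 ± 0.11 in 30-day males and 0.14 ± 0.11 in 30-day females. Group means of Abcb11 spanned 1.32-fold from lowest to highest, the narrowest span of the 8 transporters. One age comparison was called: in female WT livers Abcb11 averaged 1253 ± 136 CPM at 60 days and 948 ± 141 CPM at 30 days (SD, n = 4 each; 0.40 ± 0.11, adjusted p = 0.00599, edgeR), with no overlap.

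Abcc2 differed by sex. In 60-day WT rats it measured 947, 856, 750 and 941 CPM in males, against 1328, 1167, 1430 and 1316 CPM in females. No male reached the lowest female. The log2 fold change was -0.59 ± 0.17 (adjusted p = 0.0104, edgeR). In 60-day KO rats the values were 1150, 527, 1098 and 854 CPM in males and 1415, 1127, 1122 and 1257 CPM in females. These overlapped, with a wide spread among KO males, and the fold change of -0.44 ± 0.17 was not called (adjusted p = 0.0729, edgeR). It was called by limma (-0.50, adjusted p = 0.0389) and without replicate 1 or 3 of the KO males (adjusted p = 0.0262 and 0.0359, edgeR), whereas with 1 library left out it ran from -0.57 to -0.25. At 30 days the sex difference had a similar size, at -0.54 ± 0.17 in KO rats (adjusted p = 0.097) and -0.59 ± 0.17 in WT rats (adjusted p = 0.064, both edgeR). Males lay below females without overlap in both genotypes at that age. DESeq2 called both 30-day comparisons (adjusted p = 0.0475 in KO and 0.0217 in WT rats). Between KO and WT the log2 fold change of Abcc2 was between -0.09 and 0.05 in the 4 pairs of groups, with standard errors of 0.17.

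By sex, 3 of 8 transporters were called in 60-day KO rats (18.5% of all genes) and 4 of 8 in 60-day WT rats (26.4%). At 30 days 0 of 8 were called in KO rats (2.24%) and 0 of 8 in WT rats (2.07%), with 1 and 3 transporters, and 13.2% and 12.9% of all genes, at an unadjusted edgeR p below 0.05 in the same order. DESeq2 called 1 of 8 (Abcc2) in each of the 30-day comparisons and limma 0. In 60-day KO rats the called genes were Slc10a1 and Slco1a1, higher in males, and Abcc3, lower in males. In 60-day WT rats they were Slco1a1, higher in males, and Abcb4, Abcc2 and Abcg5, lower in males. That a transporter passed in one genotype and not in the other does not show a difference between genotypes, and the test of that difference was called for Abcb4 alone. Without the library with photoreceptor transcripts the same 3 transporters were called in 60-day KO rats.

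Abcc3, the basolateral exporter, varied most among 60-day KO females, at 6.60, 7.80, 19.7 and 48.9 CPM. The 60-day WT females had 9.77, 7.06, 7.88 and 12.9 CPM. Replicates 3 and 4 of the KO females were above all WT libraries and replicate 1 was below all of them. The log2 fold change of 1.15 ± 0.43 was not called (adjusted p = 0.116, edgeR). It was called without replicate 1, the library with photoreceptor transcripts (1.44 ± 0.41, adjusted p = 0.0468), or without replicate 2 of the KO females (1.42 ± 0.42, adjusted p = 0.0392, both edgeR). In 60-day males Abcc3 measured 4.03, 9.24, 11.3 and 2.87 CPM in KO livers, against 3.98, 4.98, 5.40 and 3.70 CPM in WT livers, with overlap (0.61 ± 0.50, adjusted p = 0.722, edgeR). The sex difference in 60-day KO rats was called at -1.58 ± 0.45 (adjusted p = 0.0131, edgeR). Without replicate 4 of the KO females it was -0.72 ± 0.36, with an adjusted p of 0.182, and the call was also lost without replicate 1 or 4 of the KO males (adjusted p = 0.0536 and 0.0547, edgeR). In 60-day WT rats the sex difference of Abcc3 was -1.04 ± 0.49 and was not called (adjusted p = 0.121, edgeR). Every WT male nevertheless lay below every WT female, whereas KO males and females overlapped.

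Abcc3 was lower at 60 than at 30 days in male KO livers, by -2.62 ± 0.44 on the log2 scale (adjusted p = 6.68e-05). It was also lower in male WT livers, by -2.62 ± 0.46 (adjusted p = 9.25e-05), and in female WT livers, by -2.06 ± 0.43 (adjusted p = 0.000541, all edgeR). None of these 3 pairs overlapped. In female KO livers it averaged 20.8 ± 19.7 CPM at 60 days and 36.5 ± 2.21 CPM at 30 days (SD, n = 4 each), which was not called by edgeR (-0.81 ± 0.40, adjusted p = 0.156) and was called by limma (-1.44, adjusted p = 0.0136). Without replicate 4 of the 60-day KO females that change was -1.67 ± 0.34 (adjusted p = 0.000825, edgeR).

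Abcg5 and Abcg8 had the largest differences with age. In male KO livers Abcg5 measured 7.34, 11.2, 11.4 and 7.70 CPM at 60 days, against 134, 132, 194 and 99.4 CPM at 30 days. In male WT livers it measured 3.72, 6.35, 14.9 and 5.43 CPM at 60 days, against 126, 100, 143 and 99.7 CPM at 30 days. In female KO livers it measured 6.15, 3.74, 22.8 and 8.82 CPM at 60 days, against 154, 159, 180 and 133 CPM at 30 days. Female WT livers had 21.03, 17.9, 11.3 and 19.5 CPM at 60 days, against 85.8, 153, 160 and 68.9 CPM at 30 days. No 60-day library reached a 30-day library of its own sex and genotype. The log2 fold changes were -3.89 ± 0.43, -3.93 ± 0.44, -3.90 ± 0.43 and -2.75 ± 0.41 in that order of groups (adjusted p = 2.15e-07, 1.43e-07, 3.01e-07 and 8.79e-06, edgeR).

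Abcg8, the partner half-transporter, followed. It measured 1.64 to 9.51 CPM at 60 days and 96.6 to 189 CPM at 30 days in male KO livers, and 1.99 to 15.1 CPM at 60 days and 95.03 to 140 CPM at 30 days in male WT livers. In female KO livers it measured 4.13 to 25.1 CPM at 60 days and 132 to 168 CPM at 30 days, and in female WT livers 13.0 to 20.9 CPM at 60 days and 65.0 to 146 CPM at 30 days. Its log2 fold changes were -4.50 ± 0.55, -4.20 ± 0.54, -3.86 ± 0.52 and -2.76 ± 0.50 in the same order (adjusted p = 8.41e-07, 1.63e-06, 5.08e-06 and 0.000115, edgeR). Whether the age effect in KO females differed from that in WT females was tested, and the difference of -1.15 ± 0.56 for Abcg5 and -1.10 ± 0.68 for Abcg8 was not called (adjusted p = 0.283 and 0.425, edgeR). Without replicate 3 of the 60-day KO females the difference was -1.90 ± 0.50 for Abcg5, which was then called (adjusted p = 0.0369), and -2.07 ± 0.62 for Abcg8 (adjusted p = 0.0706, edgeR).

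Between genotypes neither half-transporter was called at either age. In 60-day females Abcg5 was at a log2 fold change of -0.73 ± 0.42 (adjusted p = 0.336) and Abcg8 at -0.63 ± 0.51 (adjusted p = 0.528, edgeR). In each case 3 of the 4 KO libraries were below all WT libraries and replicate 3 was above them. Without that replicate Abcg5 was at -1.48 ± 0.40 (adjusted p = 0.0261, edgeR). Between sexes in 60-day WT rats Abcg5 averaged 7.59 ± 4.98 CPM in males and 17.4 ± 4.26 CPM in females (SD, n = 4 each; -1.18 ± 0.43, adjusted p = 0.0424, edgeR), and Abcg8 averaged 6.31 ± 5.96 CPM in males and 16.1 ± 3.40 CPM in females (-1.33 ± 0.53, adjusted p = 0.0676, edgeR). Replicate 3 of the WT males was within the female range for both genes. The Abcg5 call was lost without any one of replicates 1, 2 and 4 of either sex, with adjusted p-values of up to 0.133, and also with no filter on low counts (adjusted p = 0.0585) and in a fit to 16 libraries (adjusted p = 0.115, edgeR). The Abcg8 difference was called by DESeq2 (adjusted p = 0.0433), by limma (adjusted p = 0.0167) and with the clock score as a covariate (adjusted p = 0.032, edgeR). Without replicate 3 of the WT males Abcg8 was at -2.26 ± 0.56 (adjusted p = 0.00413, edgeR).

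**Figure D3:**
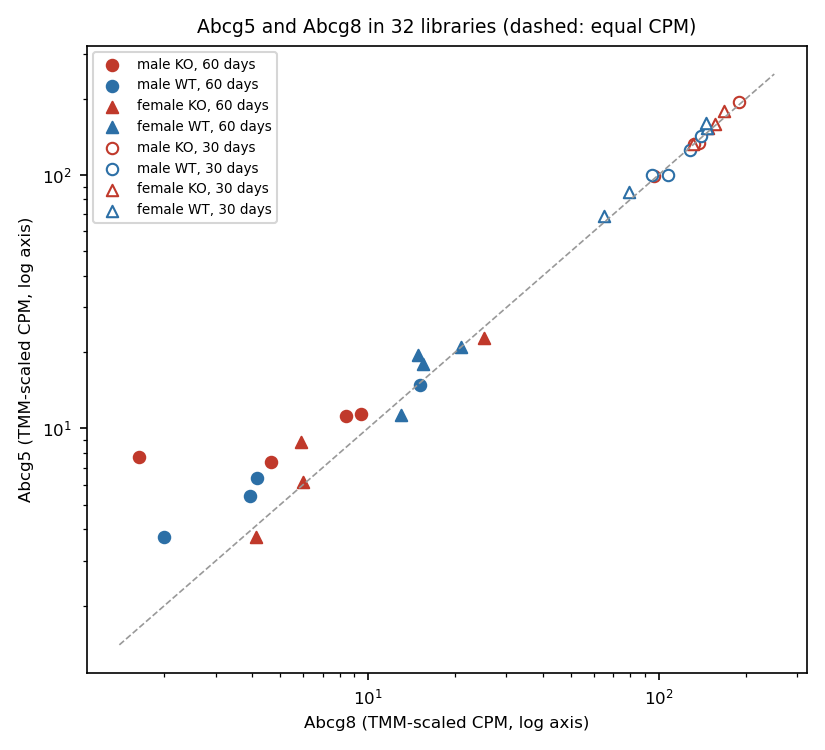
Abcg5 against Abcg8 in 32 libraries (TMM-scaled CPM, both axes logarithmic), with open symbols for 30 days and filled symbols for 60 days. The 30-day libraries lie along the dashed line of equal CPM, 7 of 8 libraries of 60-day males have more Abcg5 than Abcg8, and the KO male at 1.64 CPM of Abcg8 and 7.70 CPM of Abcg5 lies farthest from it.

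At 30 days Abcg5 had 0.926 to 1.10 reads for each Abcg8 read in the 16 libraries. At 60 days the ratio ran from 0.87 to 4.70, and the highest came from a KO male with 94 reads of Abcg5 and 20 of Abcg8. All 4 KO males, 3 of 4 WT males, 1 of 4 KO females and 2 of 4 WT females at 60 days lay above the 30-day range, and 2 KO females and 1 WT female lay below it. The 60-day libraries held 56 to 371 reads of Abcg5 and 20 to 408 of Abcg8. At 30 days they held 1312 to 4320 and 1239 to 4217. Ratios of fewer reads vary more by counting alone, and a change of the ratio with age was not tested. After group means were subtracted, log2 CPM of the pair correlated across 32 libraries with Pearson's r of 0.883 and Spearman's rho of 0.901. For each gene its partner ranked first among 10100 genes. This is a description of libraries that share depth and handling. Before subtraction the pair had r = 0.985. Next most like Abcg5 were Eif3g (r = 0.765 within groups, -0.116 before subtraction) and Nthl1 (0.754, 0.319), and next most like Abcg8 were Babam1 (0.746, 0.0736) and Polg2 (0.696, 0.263).

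The starts of these 2 genes face away from each other across a short gap, which is shown because any element in it lies before both genes. RefSeq gives 250 bases before to 50 after each start for 6 of the 8 transporters, all but Abcb11 and Abcc3. In the GRCr8 assembly, which is not the Rnor_5.0 assembly named in the submitters' processing notes, the 205 bases between the starts are chr6:15717731-15717935, printed on the strand of Abcg5 (+), with Abcg8 on the other strand. Capitals mark AGATAA, a sequence of the kind bound by factors of the GATA family.
Abcg8-Abcg5 gap: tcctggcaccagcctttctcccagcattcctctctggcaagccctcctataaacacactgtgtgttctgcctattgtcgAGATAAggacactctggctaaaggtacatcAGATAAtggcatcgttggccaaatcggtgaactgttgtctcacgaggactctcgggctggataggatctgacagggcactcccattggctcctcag
Searched on both strands, AGATAA occurred 2 times. At least 1 copy was in 8.25% and at least 2 copies in 0.637% of 27457 RefSeq windows of the same length directly before gene starts. TATAAA occurred 1 time (10.9% of windows held it) and CCAAT 1 time, on the strand of Abcg8 (29.8%), and AGGTCA, a nuclear receptor half-site, 0 times (11.4%). None of these matches overlapped. They describe letters in the window and no binding was measured.

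**Figure D4:**
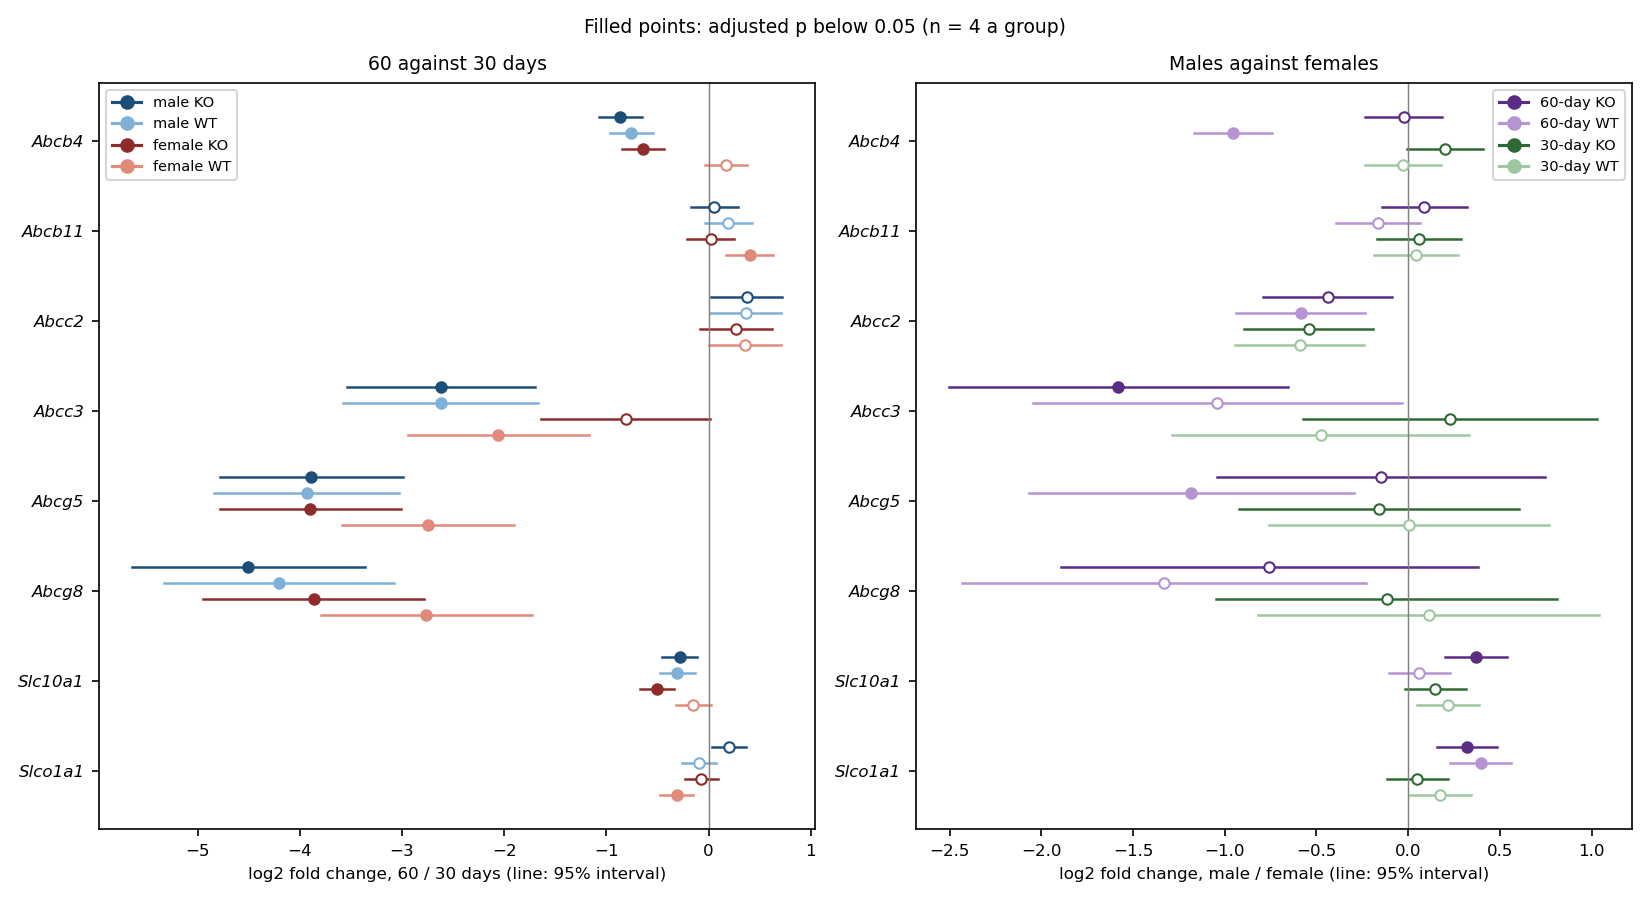
Left, log2 fold change of 60 over 30 days in each sex and genotype. Right, log2 fold change of males over females in each genotype and age (edgeR, 95% intervals, n = 4 a group, filled at an adjusted p below 0.05). Abcg5 and Abcg8 lie between -2.75 and -4.50 for age, and Abcb4 is filled for sex only in 60-day WT rats.

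Over age as a whole, 5 of 8 transporters were called in male KO livers (28.4% of all genes) and 5 of 8 in male WT livers (31.5%). They were Abcb4, Abcc3, Abcg5, Abcg8 and Slc10a1, all lower at 60 days. In female KO livers 4 of 8 were called (22.7%): Abcb4, Abcg5, Abcg8 and Slc10a1, all lower. In female WT livers 5 of 8 were called (33.1%): Abcc3, Abcg5, Abcg8 and Slco1a1 were lower and Abcb11 was higher. Slc10a1 averaged 637 ± 23.2 CPM at 60 days and 776 ± 14.0 CPM at 30 days in male KO livers (-0.28 ± 0.08, adjusted p = 0.00847). It averaged 493 ± 36.6 CPM at 60 days and 700.2 ± 65.0 CPM at 30 days in female KO livers (SD, n = 4 each; -0.51 ± 0.08, adjusted p = 2.57e-05, edgeR). In male WT livers the change was -0.31 ± 0.08 (adjusted p = 0.00456), and in female WT livers -0.15 ± 0.08 (adjusted p = 0.161, edgeR). The female WT change was called without replicate 1 of the 30-day WT females (-0.22, adjusted p = 0.0424, edgeR). Limma on the deposited unscaled values also called it (-0.26, adjusted p = 0.012), but there the median of all genes was -0.12, against 0.01 by edgeR. Slco1a1 averaged 245 ± 30.1 CPM at 60 days and 305 ± 34.8 CPM at 30 days in female WT livers (SD, n = 4 each; -0.31 ± 0.08, adjusted p = 0.00294, edgeR). In female KO and male WT livers edgeR did not call it, but limma on the unscaled values did (-0.23 and -0.26, adjusted p = 0.0348 and 0.0134). In male KO livers it measured 364 to 411 CPM at 60 days and 327 to 341 CPM at 30 days, without overlap. That change of 0.20 ± 0.08 was not called by edgeR (adjusted p = 0.0587). Of 6 alternatives 4 called it, DESeq2 among them (adjusted p = 0.0298), while limma on the deposited unscaled values gave 0.0069 (adjusted p = 0.954) and 0 of 8 fits with 1 library left out called it. Abcc2 was 0.27 to 0.37 higher at 60 days on the log2 scale in the 4 pairs, and none was called (adjusted p = 0.103 to 0.279, edgeR). With 1 library left out it was called in male KO livers without replicate 2 of the 60-day KO males (0.56 ± 0.14, adjusted p = 0.00441) and in female WT livers without replicate 4 of the 30-day WT females (0.55 ± 0.17, adjusted p = 0.013, edgeR). The age effect of Slc10a1 in KO minus that in WT females was -0.36 ± 0.11, with an adjusted p of 0.0819 by edgeR, 0.0482 by DESeq2 and 0.0497 by limma, and of 0.0487 without replicate 3 of the 30-day and 0.041 without replicate 1 of the 60-day WT females (edgeR). Without the library with photoreceptor transcripts the same 4 transporters were called in female KO livers.

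Markers of other cell types were read beside the age results. The 7 markers of stellate cells and fibroblasts summed to 308 to 667 CPM at 60 days and 899 to 1507 CPM at 30 days, without overlap in any sex and genotype. Of the 6 tested, 4, 5, 3 and 6 were lower at 60 days in male KO, male WT, female KO and female WT livers and 0 were higher. Col1a1, a collagen chain, was lower in all 4 pairs, by -1.93 ± 0.27, -2.07 ± 0.27, -1.61 ± 0.27 and -3.17 ± 0.29 in that order (adjusted p = 4.55e-06, 1.75e-06, 8.2e-05 and 2.61e-09, edgeR). In 30-day females Col1a1 averaged 43.9 ± 6.17 CPM in KO and 108 ± 35.3 CPM in WT livers, without overlap, a difference that edgeR called. In 60-day females it averaged 14.3 ± 0.96 CPM in KO and 12.0 ± 3.48 CPM in WT livers. The larger age change in female WT livers thus goes with their high 30-day level. In 30-day males it averaged 80.3 ± 31.3 CPM in KO and 74.2 ± 20.8 CPM in WT livers (SD, n = 4 each). Cholangiocytes and enterocytes express some of these transporters. The 8 cholangiocyte markers summed to 31.5 to 59.8 CPM at 60 days and 45.6 to 61.7 CPM at 30 days. The ages overlapped in males of both genotypes. They did not in KO females (36.9 to 46.2 against 53.3 to 60.5 CPM) or in WT females (31.5 to 39.1 against 45.6 to 52.5 CPM). Of these 8 markers 4, 2, 4 and 3 were lower at 60 days in male KO, male WT, female KO and female WT livers, with 1 higher in male KO livers. Of 4 enterocyte markers tested, at most 2 were lower and at most 1 higher in any of these comparisons. Of 10 hepatocyte markers 5, 5, 4 and 2 were higher and 1, 1, 3 and 2 lower at 60 days, in the same order. These counts stand against the 28.4%, 31.5%, 22.7% and 33.1% of all genes called in either direction. The part of these cell types in the age results was not tested. The titles of the samples have another form at each age, no batch was labelled, and an effect of age cannot be told apart from separate handling of the ages. The 30-day titles also hold a second number, 1 or 2, whose meaning was not stated. It was 2 in every KO female, but 1, 1, 1 and 2 in WT females. It was 1, 1, 1 and 2 in KO males and 2, 2, 1 and 1 in WT males. In 30-day females genotype can therefore hardly be told apart from what this number stands for.

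Other genes of these pathways were read from lists. Of 9 further basolateral carriers tested, 1 was higher and 1 lower in 60-day KO females, against 6.77% of all tested genes called. Slco1a2, an organic anion uptake carrier of the same family as Slco1a1, averaged 390 ± 70.2 CPM in KO females and 203 ± 84.6 CPM in WT females (0.95 ± 0.23, adjusted p = 0.0137, edgeR). Slco1b2, the liver uptake carrier that also takes up bile acids, averaged 947 ± 60.8 CPM in KO females and 1422 ± 237 CPM in WT females (SD, n = 4 each; -0.59 ± 0.17, adjusted p = 0.0303, edgeR). Slco1b2 was also lower in males than in females among 60-day WT rats (-1.07 ± 0.17, adjusted p = 1.37e-05), while among 60-day KO rats that difference was -0.39 ± 0.17 (adjusted p = 0.112, edgeR). Slco1a2 was called in females without the library with photoreceptor transcripts (0.89 ± 0.25, adjusted p = 0.0478) and Slco1b2 was not (-0.56 ± 0.18, adjusted p = 0.0859, both edgeR). The male minus female genotype effect of Slco1b2, 0.68 ± 0.23, was not called (adjusted p = 0.261, edgeR).

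The list of other canalicular genes held exporters and flippases, and also genes of membrane linkage, traffic and scaffolding such as Ezr, Myo5b, Rab11a and Pdzk1. Of its 11 genes tested and of 14 genes of bile acid synthesis and conjugation, 0 were called between KO and WT in any sex and age. The shares of all genes called were 6.77% in 60-day females, 0.209% in 60-day males, 0.0545% in 30-day males and 0.3% in 30-day females. The medians of the 2 lists in 60-day females were 0.01 and -0.08, against 0.01 for all genes. Of 16 genes of sterol uptake, trafficking and efflux, 1 was lower in 60-day KO females. It was Stard4, a carrier of cholesterol in the cytosol, with 45.3 ± 1.97 CPM in KO females and 77.6 ± 5.26 CPM in WT females (SD, n = 4 each; -0.78 ± 0.15, adjusted p = 0.00171, edgeR). Of 15 nuclear receptors and other regulators of these genes 2 were lower and 0 higher. Srebf2, a factor that drives cholesterol synthesis genes, averaged 113 ± 8.97 CPM in KO females and 149 ± 15.3 CPM in WT females (SD, n = 4 each; -0.39 ± 0.09, adjusted p = 0.00914, edgeR). Nr1i3 (CAR), a xenobiotic-sensing receptor, measured 0.58 to 2.67 CPM in KO females and 2.99 to 16.4 CPM in WT females (-2.28 ± 0.52, adjusted p = 0.00805, edgeR). Stard4, Srebf2 and Nr1i3 were also called without the library with photoreceptor transcripts, at -0.80, -0.34 and -2.31 (adjusted p = 0.00454, 0.0467 and 0.026, edgeR). In the other 3 comparisons of KO with WT, 0 genes of these 5 lists were called.

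With sex, where 18.5% of all genes were called in 60-day KO rats and 26.4% in 60-day WT rats, the sterol list had 2 higher and 5 lower of 16 in males among 60-day KO rats and 1 higher and 7 lower among 60-day WT rats. Bile acid synthesis had 5 higher and 1 lower of 14 in 60-day KO males against KO females, and 6 higher and 3 lower in 60-day WT males against WT females. The other canalicular genes had 1 higher and 3 lower of 11 in KO rats, and 1 higher and 4 lower in WT rats. Without the library with photoreceptor transcripts (15.1% of all genes) the counts in KO rats were 0 higher and 4 lower for sterols, 4 higher and 1 lower for bile acid synthesis, and 1 higher and 3 lower for the canalicular genes. Medians of these lists over sex at 60 days lay between -0.39 and 0.21.

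**Figure D5:**
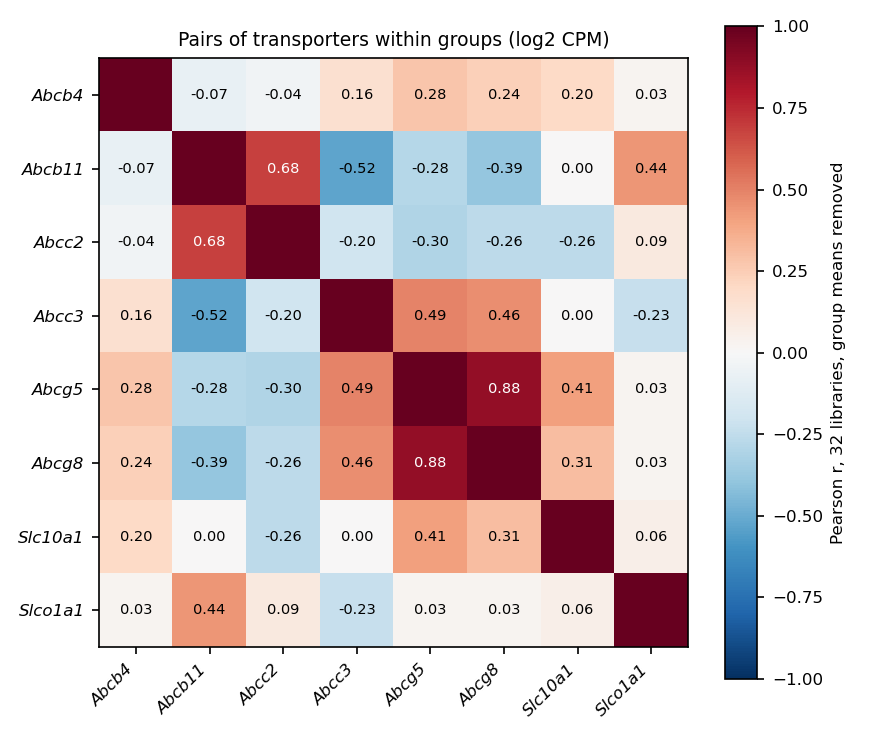
Pearson's r between each pair of transporters over 32 libraries (log2 CPM with group means subtracted), from blue (-1) to red (1). Abcg5 with Abcg8 (0.88) and Abcb11 with Abcc2 (0.68) are the highest, and Abcb11 with Abcc3 (-0.52) is the lowest.

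Within groups the transporters did not vary as one set. Apart from Abcg5 with Abcg8, the closest pair was Abcb11 with Abcc2 (r = 0.684, rho = 0.598), both canalicular, and the most opposed was Abcb11 with Abcc3 (r = -0.523, rho = -0.528), one canalicular and one basolateral. Abcb4 was near none of the others, with r between -0.07 and 0.28. The 3 genes most like each transporter by this measure follow, with r within groups and then r over the 32 values as they stood, both over 32 libraries. For Abcb4 they were Ablim3 (0.727, 0.796), Cldn1 (0.648, 0.498) and Kpna2 (0.639, 0.179). For Abcb11 they were Zfyve9 (0.815, 0.703), Ttc17 (0.799, 0.583) and Wwp1 (0.763, 0.702), and for Abcc2 Chd2 (0.786, 0.537), Atrn (0.775, -0.331) and Vcpip1 (0.749, 0.618). For Abcc3 they were Il17rb (0.820, 0.683), Fam162a (0.782, -0.477) and Mgst2 (0.762, 0.409). For Slc10a1 they were Ccbl2 (0.790, -0.110), Tmem176b (0.738, 0.180) and Rbp4 (0.711, 0.556), and for Slco1a1 Col18a1 (0.820, 0.663), Repin1 (0.762, 0.242) and the carrier Slco1a2 (0.734, 0.740). The spread between replicates also differed. The within-group SD of log2 CPM, pooled over the 8 groups, was 0.11 for Slc10a1 and Slco1a1, and 0.59, 0.62 and 0.76 for Abcg5, Abcc3 and Abcg8. By group the SD ran from 0.09 to 1.33 for Abcc3 and from 0.15 to 1.19 for Abcg8, lowest in 30-day KO females for both.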

How the data were processed

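Liver mRNA of 32 rats was sequenced. Per the labels' protocols, extraction used Trizol and the library kit was a stranded one for mRNA. STAR, Cufflinks, limma and the assembly Rnor_5.0 were used, per the submitters' processing notes, without stated roles, versions or annotation. Read counts were deposited by the authors for 17327 genes, and log2 CPM for 11344 genes, unscaled between libraries. The log2 values deposited matched values recomputed from the counts. Between 18.05% and 21.18% of counted reads lay on no feature and stayed out.

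The count test was edgeR 4.0.16 (R 4.3.3). Genes passed filterByExpr at a minimum count of 10, libraries were scaled by TMM, and quasi-likelihood dispersions were estimated robustly around the means of 8 groups. P-values of 18 contrasts were each adjusted over 11002 genes. The standard error of a log2 fold change was its absolute value divided by the square root of its F statistic. The 95% intervals used this error and a t distribution with the 24 residual degrees of freedom alone, without the prior ones that the p-values use. CPM are TMM-scaled, and log2 CPM for likeness used a prior count of 2. Alternatives were DESeq2 1.42.0, limma 3.58.1 on the deposited log2 values, DESeq2 size factors, no filter and a clock-score covariate. Further ones were fits to 16 libraries, leaving out each library and, at 30 days, the second number of the sample title as a covariate. Leaving the library with photoreceptor transcripts out of the list results was added after seeing the data. The clock score is the mean log2 CPM of 7 Per, Nr1d and clock output genes minus that of 4 genes (Arntl, Clock, Npas2 and Cry1). The design was tested on simulated data.

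Counts of replicate libraries varied beyond sampling noise, with a chi-square of 10.6 to 55.6 for each degree of freedom. Replicate numbers follow the order of samples and pair no animals. Labels name separate samples, so p-values measure the spread between them. The transporters and lists were chosen with earlier results of these data known. Named genes were the 8 transporters and, of each list, up to 4 called between KO and WT with the smallest adjusted p. For each transporter the 3 genes with the highest r within groups and a mean of at least 1 CPM were also named.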

Additional observations from a re-analysis of the deposited data

Results flagged for a closer look

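Each transporter was examined in each group of 4 libraries for a sample far from the others, 64 sets of values in all, and 2 sets held one by Dixon's criterion. Chance flags about 1 in 20 such sets. Abcg8 in 60-day KO female replicate 3 stood at 25.1 CPM, against 4.13 to 5.998 CPM in the other 3, with a gap of 0.911 of the whole range. Abcg8 in 60-day WT male replicate 3 stood at 15.1 CPM, against 1.99 to 4.17 CPM in the other 3, with a gap of 0.834 of the range. Abcg5 was also highest in both libraries, at 22.8 and 14.9 CPM.

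Abcb4 had 3 effects that differed between groups by a test of the difference itself. The KO effect in males minus that in females at 60 days was 0.93 ± 0.14 (log2, adjusted p = 0.00234). The age effect in KO minus that in WT females was -0.81 ± 0.14 (adjusted p = 0.00199). The age effect in males minus that in females was -0.93 ± 0.14 in WT rats (adjusted p = 7.68e-05, all edgeR). These 3 tests share libraries of 60-day WT females, so they are not independent of each other.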

How the results depend on the processing

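Over 305 recomputed counts of called transporters, 286 stayed within 1.5 times the value reported and 19 did not, and no called fold change reversed. In 60-day females 3 transporters were called between KO and WT, but 1 with the clock score as a covariate, 1 in a fit to the 16 libraries at 60 days, and 1 to 4 when 1 library was left out (1 without WT female replicate 4). Between sexes at 30 days 0 were called in KO rats, but 1 by DESeq2 (Abcc2). In 30-day WT rats 0 were called, but Abcc2 was called with the clock score, by DESeq2 and in a fit to 16 libraries (1 each). Abcc2 was also called with the second number of the sample title as a covariate (1), and 0 to 1 transporters were called with 1 library left out. For sex by genotype at 60 days 1 became 0 in the fit to 16 libraries. For age by genotype in females 1 became 2 by DESeq2 and by limma (Slc10a1 joined), and 1 to 2 with 1 library left out (Slc10a1 or Abcg5 joined). With 1 library left out, sex by age called 0 to 1 in KO rats (Abcc3) and 1 to 2 in WT rats (Abcg8). The causes were not tested.

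Abcb4 in 60-day KO against WT females was called in 6 of 6 alternatives (-0.68 to -0.64) and in 8 of 8 fits with 1 library left out (-0.73 to -0.65). With the deposited unscaled log2 values the median of all genes was -0.12 to -0.21 in the 4 age comparisons, against -0.01 to 0.01 by edgeR. No paired analysis was possible because no label links an animal of one group to one of another. The low counts of Abcg8 at 60 days, 20 reads in 1 library, limit its folds.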
